A study of Mus musculus with 7 samples.

Results

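Fibronectin, fibrillin and elastic fibre genes were compared between the blastema of the mouse digit tip and the uninjured digit. The 10 genes were selected by name (Fn1, Fbn1, Fbn2, Eln, Mfap2, Mfap4, Mfap5, Fbln1, Fbln2 and Fbln5), by their known roles and not by a cut on measured values. Earlier results of these data were known when these genes and the related and marker lists were chosen. Their counts beside the shares over all genes are therefore descriptive. Of these, 9 had a probe set that the platform annotation gives to that gene alone, among 22180 genes measured that way. Fbn1 is not analysed here. Each of the 9 had 1 such probe set, so splice forms were not told apart.

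The samples were 4 uninjured digits and 3 blastemas, all from C57Bl/6 mice with no transgene or other treatment named in the labels. A blastema is the mass of proliferating cells that forms over an amputated digit tip and rebuilds it, and these were collected 2 weeks after amputation. The title of the study concerns Schwann cell precursors that act on neighbouring cells, and this comparison shows how matrix genes of the blastema stood against the intact digit. The labels call the samples of a group independent biological replicates. They do not give the age or sex of the mice or whether digits of several animals were pooled. Total RNA was hybridised to 1-colour arrays, and all levels below are on a log2 scale, so that a difference of 1 is a 2-fold difference.

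Fibronectin is a large glycoprotein that cells assemble into fibrils by pulling on it through integrins, and it is among the early matrices laid down in wounds and embryos. Fibrillins polymerise into microfibrils, the scaffold on which tropoelastin, the product of Eln, is deposited to form elastic fibres. Microfibril-associated proteins bind this scaffold, fibulins help to place and link tropoelastin, and lysyl oxidases crosslink it. In skin and digit these fibres lie in the dermis and in vessel walls and give the tissue its recoil.

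All 9 measured genes were higher in the blastema, by log2 fold changes of 0.63 to 2.86 with a median of 1.42, while the median over all genes was -0.01. By limma with Benjamini-Hochberg adjustment over all 22180 genes, 9 of 9 passed an adjusted p of 0.05 upward, against 4.98% of all genes, and 0 passed downward, against 4.66%. The samples are whole tissue, so more cells of a type and more RNA per cell cannot be told apart. In 7 of the 9 the rise was at least 2-fold, which 1.53% of all genes reached with a call. The lowest blastema value lay above the highest uninjured value in 9 of 9 genes. Over all genes the groups did not overlap in 21%, and in 10.4% the blastema was the higher group. The gap between the groups ran from 0.32 for Mfap5 to 1.66 for Fn1. Omission of 1 array moved the genes called upward over the whole table between 457 (without blastema array 2) and 1286 (without blastema array 1), against 1105 with all arrays.

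**Figure D1:**
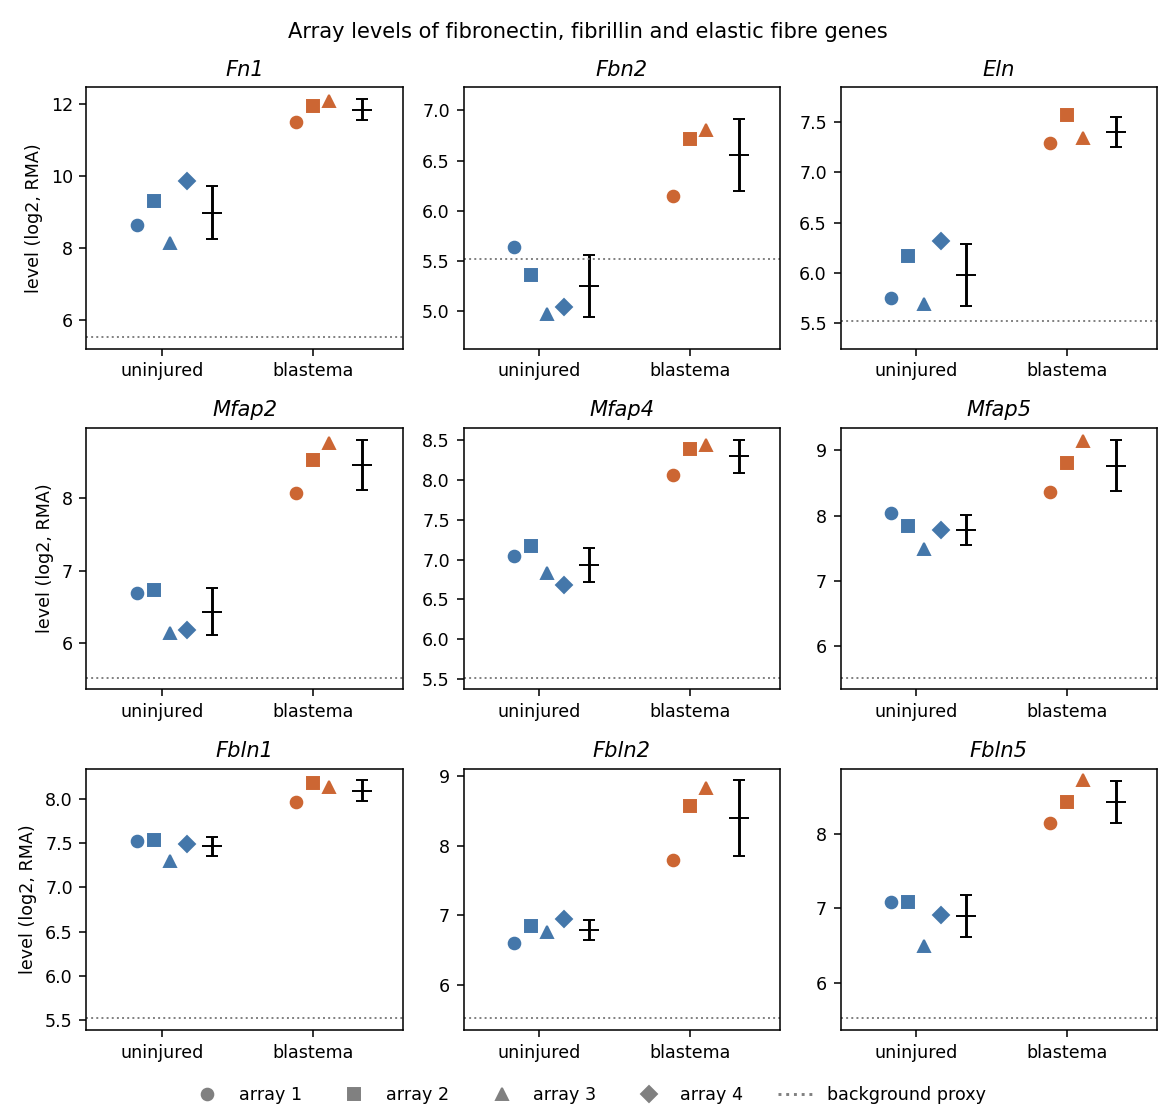
Level of each of the 9 genes (log2, vertical axes with a range of their own per gene) on the 4 uninjured and 3 blastema arrays. Points are single arrays, with the mean and SD beside them, and the dotted line is the background proxy of 5.52. In each gene every blastema array lies above every uninjured array.

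Fn1, which encodes fibronectin, had the largest change of the 9. Its levels were 8.64, 9.29, 8.13 and 9.84 in uninjured digits and 11.50, 11.93 and 12.07 in blastemas. The uninjured digits varied more than the blastemas, and the groups were 1.66 apart. The means were 8.98 ± 0.75 (SD, n = 4) and 11.83 ± 0.29 (SD, n = 3), so that Fn1 rose by 2.86 ± 0.39 (SE), or 7.24-fold (limma adjusted p = 0.00641). By size of change in either direction, Fn1 ranked 24 of 22180 genes.

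Eln, the gene of tropoelastin, was at 5.75, 6.17, 5.69 and 6.31 in uninjured digits and at 7.29, 7.57 and 7.34 in blastemas. The uninjured values lay little above the background proxy of 5.52, a level under which 95% of 1105 olfactory receptor genes had their mean, and the blastema values stood clear of it. The log2 fold change was 1.42 ± 0.17 (SE), or 2.68-fold (limma adjusted p = 0.00429). Fbn2 encodes fibrillin-2, the fibrillin best known from embryonic tissue. Its levels were 5.64, 5.36, 4.97 and 5.05 in uninjured digits and 6.15, 6.72 and 6.80 in blastemas. Only 1 of 4 uninjured arrays was above the background proxy, so the uninjured level was near the limit of the signal, whereas all blastema arrays were above it. The measured values of Fbn2 rose by 1.30 ± 0.21 (SE) (limma adjusted p = 0.0117), a change taken from an uninjured mean of 5.26 that is itself under the proxy. Fbn2 did not pass without blastema array 2 (limma adjusted p = 0.0596) or array 3 (0.0598).

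All 3 microfibril-associated genes rose. Mfap2 encodes MAGP-1, a small glycoprotein bound along fibrillin microfibrils. Its levels were 6.69, 6.73, 6.14 and 6.17 in uninjured digits and 8.08, 8.53 and 8.77 in blastemas, with the lowest blastema 1.35 above the highest uninjured digit. Mfap2 rose by 2.02 ± 0.22 (SE), or 4.07-fold (limma adjusted p = 0.00322), the next largest change after Fn1. Mfap5 encodes MAGP-2, the paralogue of MAGP-1. It was at 8.03, 7.83, 7.49 and 7.77 in uninjured digits and at 8.36, 8.80 and 9.14 in blastemas, so that the groups nearly met. Mfap5 rose by 0.98 ± 0.20 (SE), or 1.98-fold (limma adjusted p = 0.0239). It had the weakest call of the 9. The limma adjusted p was 0.0682, 0.0666 and 0.0687 when uninjured array 2, 3 or 4 was omitted, and 0.0928 and 0.0804 when blastema array 2 or 3 was.

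Taken within each array, the change of Mfap2 minus that of Mfap5 was 1.04. The exact two-sided permutation p was 0.0571, also after adjustment over the 2 pairs compared. This p is the smaller tail doubled, and with 35 arrangements of the arrays no smaller value of it is possible. Computed in this way the test could not pass 0.05, so it does not decide whether the changes of the 2 genes differ. The blastema values of the difference lay above all uninjured ones. Mfap4, a fibrinogen-related protein that binds tropoelastin and fibrillin, was at 7.04, 7.17, 6.84 and 6.68 in uninjured digits and at 8.06, 8.39 and 8.44 in blastemas. Both groups were tight, with SDs of 0.22 and 0.21. Its rise of 1.36 ± 0.14 (SE), or 2.57-fold, had the smallest adjusted p of the 9 genes (limma adjusted p = 0.00311).

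The 3 fibulins among the 9 genes also rose. Fbln5 encodes fibulin-5, which tethers tropoelastin and lysyl oxidase-like enzymes to the microfibril. Its levels were 7.09, 7.08, 6.49 and 6.91 in uninjured digits and 8.15, 8.43 and 8.72 in blastemas. Uninjured array 3 was the low one, and the groups were 1.06 apart. Fbln5 rose by 1.54 ± 0.18 (SE), or 2.91-fold (limma adjusted p = 0.00432). Fbln2, whose product fibulin-2 binds fibronectin, fibrillin and basement membrane proteins, was at 6.60, 6.84, 6.75 and 6.95 in uninjured digits and at 7.79, 8.57 and 8.82 in blastemas. Here the blastemas were the more variable group, with an SD of 0.54 against 0.15. The rise was 1.61 ± 0.23 (SE), or 3.05-fold (limma adjusted p = 0.00776). Fbln1, for fibulin-1, which binds fibronectin and is found in elastic fibres, had the smallest change. It was at 7.52, 7.54, 7.30 and 7.50 in uninjured digits and at 7.96, 8.18 and 8.14 in blastemas, tight in both groups with SDs of 0.11 and 0.12. It rose by 0.63 ± 0.09 (SE), or 1.55-fold (limma adjusted p = 0.0067).

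Within each array, the change of Fbln1 minus that of Fbln2 was -0.98 on the log2 scale. The exact two-sided permutation p was again 0.0571, before and after adjustment over the 2 pairs. It was the smallest possible with the smaller tail doubled, so this difference did not pass and could not have in this test. Fbln1 was also the gene of the 9 whose call depended on scaling. With each array scaled to 9 reference genes its change was 0.27 (limma adjusted p = 0.0836), and the other 8 passed. That scaling lowered the median of all genes to -0.37. Since it shifts every gene of an array by the same amount, the median of the 9 genes stayed 1.43 above it by construction. It turned the calls over all genes from 1105 higher and 1034 lower (51.66% higher) to 550 higher and 11201 lower (4.68%). The reference genes themselves were not level, with B2m 1.34 and Gusb 0.89 higher in the blastema.

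**Figure D2:**
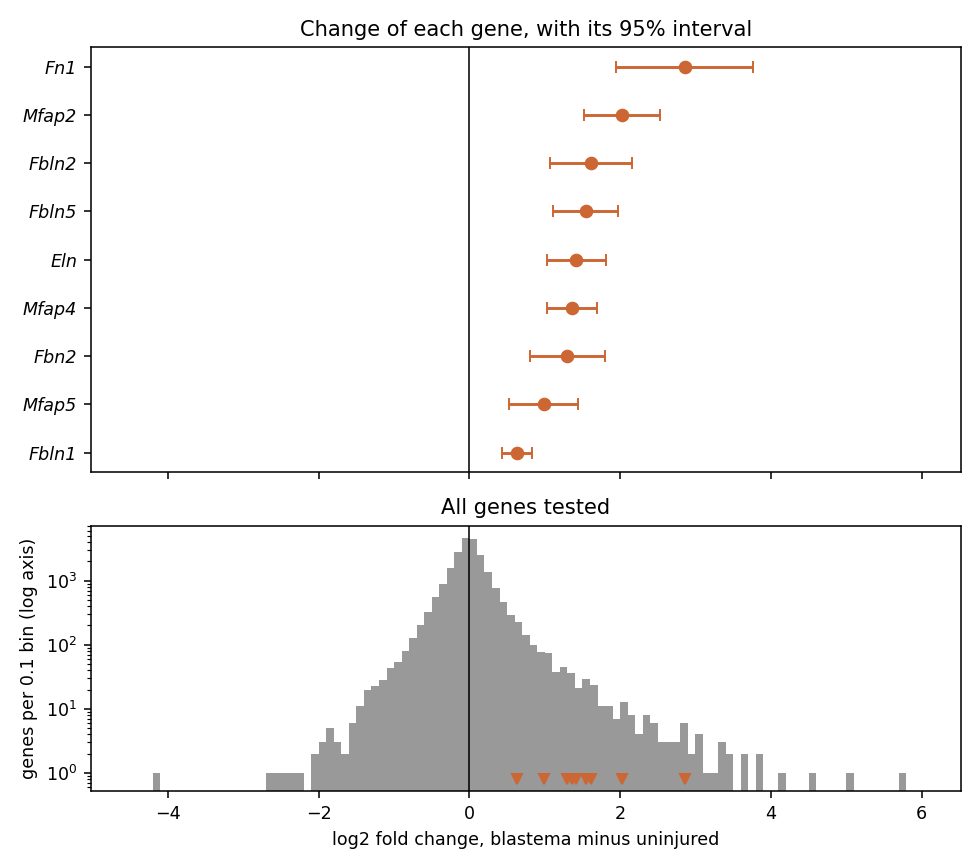
Top, log2 fold change (blastema minus uninjured) of each of the 9 genes with its 95% interval from limma. Bottom, the same quantity for all 22180 genes as a histogram with a log axis of gene counts, where triangles mark the 9 genes. The changes of the 9 genes run from 0.63 to 2.86, all on the upward side of a distribution centred near 0.

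The 7 arrays did not contribute equally. Blastema array 1 was the lowest of its group in 9 of 9 genes, and uninjured array 3 was the lowest of its group in 7 of 9. Blastema array 3 was the highest in 7 of 9. The arrays numbered 1 in both groups also stood apart from the rest on the axis with the second largest variance over all genes (14.3%), at 24.77 and 15.78 against -13.59 to -3.18 on the others. Without both of them, 9 of 9 genes still passed, with log2 fold changes of 0.72 to 2.91 and limma adjusted p of 0.00696 to 0.0398. The labels name no batch.

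Sequence before the transcription start was at hand for 4 of the 9 genes, Mfap2, Fbln1, Fbln2 and Fbln5, in 7 windows of 250 bases (RefSeq, GRCm38.p6), of which the 2 of Fbln1 overlap. They were searched on both strands for a TATA box (TATAAA), a GC box (GGGCGG), and motifs of AP-1 (TGANTCA), TEAD (GGAATG) and RUNX (TGTGGT) factors. The windows below belong to Mfap2, Fbln2 and Fbln5, the 3 of these genes with the largest rises, and capitals mark each match to any of these motifs.
Mfap2, chr4:141010431-141010680, + strand: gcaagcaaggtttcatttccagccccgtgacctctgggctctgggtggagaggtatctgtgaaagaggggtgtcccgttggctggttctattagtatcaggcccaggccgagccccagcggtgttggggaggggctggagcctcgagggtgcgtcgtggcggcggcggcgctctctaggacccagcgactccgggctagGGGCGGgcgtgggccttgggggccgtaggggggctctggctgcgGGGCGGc
Fbln2, chr6:91212514-91212763, + strand: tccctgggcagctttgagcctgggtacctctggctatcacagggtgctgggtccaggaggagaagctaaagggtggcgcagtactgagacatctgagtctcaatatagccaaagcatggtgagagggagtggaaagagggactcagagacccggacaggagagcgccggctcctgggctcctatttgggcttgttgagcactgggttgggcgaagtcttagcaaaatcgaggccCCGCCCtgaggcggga
Fbln5, chr12:101819120-101819369, - strand: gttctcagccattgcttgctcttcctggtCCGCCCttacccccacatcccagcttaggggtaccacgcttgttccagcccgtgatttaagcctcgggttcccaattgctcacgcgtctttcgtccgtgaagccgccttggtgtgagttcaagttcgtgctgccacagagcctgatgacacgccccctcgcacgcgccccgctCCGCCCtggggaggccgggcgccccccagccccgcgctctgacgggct
All capitals in these windows are GC boxes. Counted from the start site, Mfap2 held 2, at -51 to -46 and -7 to -2, Fbln2 held 1 at -16 to -11, and Fbln5 held 2, at -221 to -216 and -48 to -43. Of the 2 windows of Fbln1, 1 held a GC box as well, and the other windows of Mfap2, Fbln1 and Fbln5 held none. Of all 32851 windows of this length, 32.7% held a GC box. A TATA box (12.4% of all windows), an AP-1 motif (6.75%) and a RUNX motif (14%) were found in none of the 7 windows, and a TEAD motif (12.6%) was found in 1, the other window of Mfap2. The shares of G and C were 68.8% for Mfap2, 58.8% for Fbln2 and 65.2% for Fbln5 in the printed windows. In the others they were 51.2% for Mfap2, 46.4% and 62.4% for Fbln1 and 49.6% for Fbln5, so the 7 windows lay on both sides of the median of 52.4% over all windows.

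Among 19 measured partners of microfibrils and elastic fibres, 4 rose, 1 fell and 14 did not pass the test, with a median log2 fold change of 0.23. Of the named genes, Hmcn1, which encodes the large fibulin family protein hemicentin-1, rose by 1.64 ± 0.22 (SE) (limma adjusted p = 0.00655). Its levels were 6.01, 6.30, 5.76 and 6.06 in uninjured digits and 7.13, 7.85 and 8.02 in blastemas, with no overlap. Ltbp2, a latent TGF-beta binding protein that attaches to fibrillin-1 microfibrils, rose by 1.39 ± 0.09 (SE) (limma adjusted p = 0.00126). It went from 5.62 to 5.90 in uninjured digits to 7.04 to 7.26 in blastemas, a narrow range in each group. The other LTBP genes did not pass, with Ltbp1 at 0.35 (limma adjusted p = 0.0504), Ltbp3 at 0.24 and Ltbp4 at 0.00.

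The 1 partner that fell was Efemp1, which encodes fibulin-3, named here after its value was seen. It was at 7.08, 7.13, 6.56 and 7.18 in uninjured digits and at 5.63, 5.94 and 6.13 in blastemas, so the blastemas were the low group without overlap. It fell by 1.09 on the log2 scale (SE 0.18, limma adjusted p = 0.0119). It did not pass without blastema array 2 (limma adjusted p = 0.054) or without both arrays numbered 1 (0.0725). Of the 6 measured genes of the fibulin family, 4 thus rose (Fbln1, Fbln2, Fbln5 and Hmcn1), Efemp1 fell, and Fbln7 differed by 0.05 (limma adjusted p = 0.856). Emilin1, an elastin-binding glycoprotein gene, and Adamts6, a protease gene, rose too (0.68 and 1.02), both picked out with their values in view. The call of Emilin1 was lost on omission of uninjured array 2, 3 or 4, or of blastema array 2 or 3 (limma adjusted p = 0.0587 to 0.0937), and also under reference gene scaling, where its change was 0.31 (0.153). Adamts6 lost its call on omission of any single array other than blastema array 1 (0.0551 to 0.101). Of 9 ADAMTS and ADAMTS-like genes known to bind or process microfibrils, the 8 besides Adamts6 did not pass, with changes of -0.05 to 0.70.

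**Figure D3:**
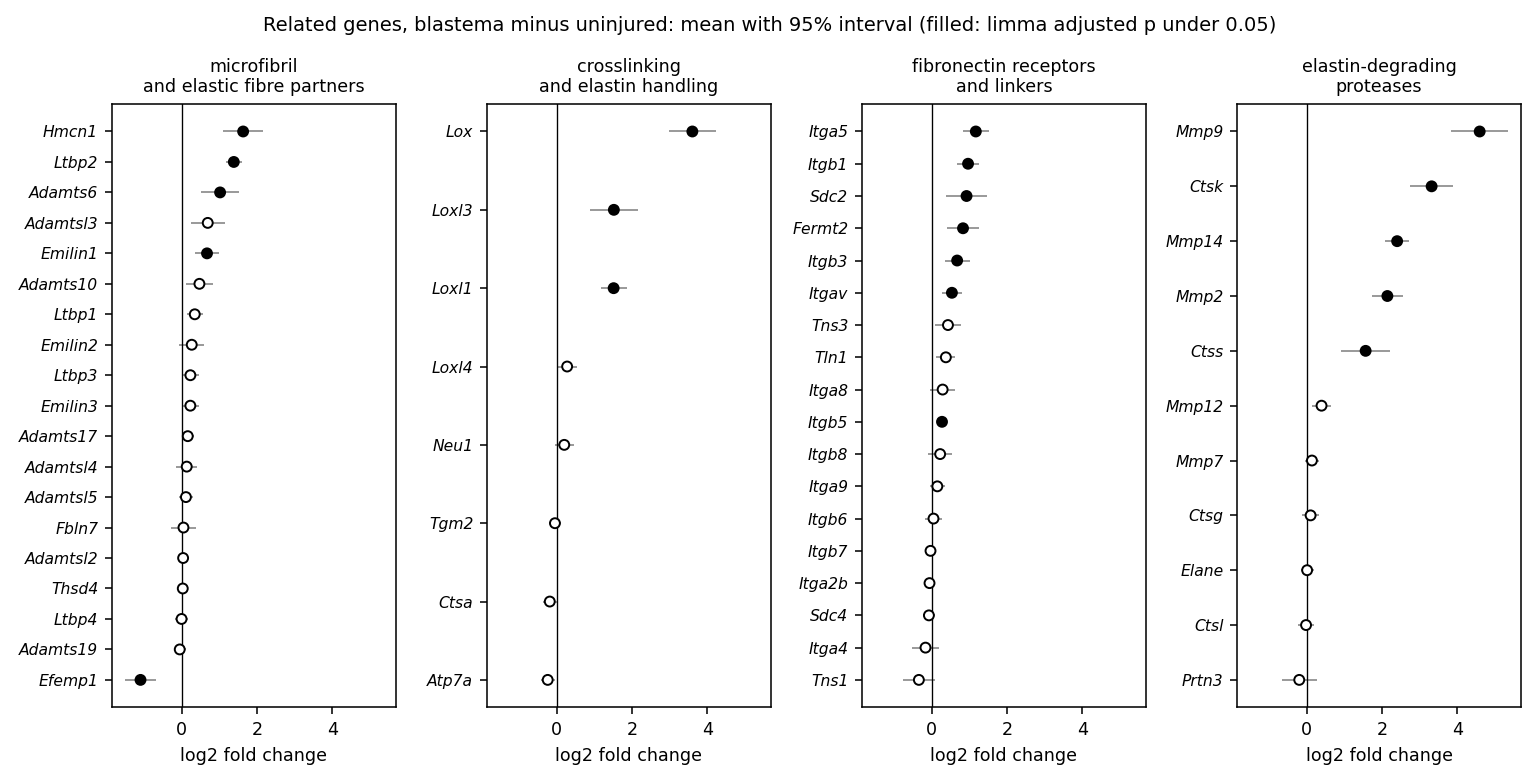
Log2 fold change (blastema minus uninjured, horizontal axes) of each measured related gene in 4 lists, with 95% intervals from limma. Filled points passed an adjusted p of 0.05, 19 upward and 1, Efemp1, downward.

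Genes for crosslinking changed in part. Of 8 measured genes of crosslinking and elastin handling, 3 rose and 5 did not pass, with a median of 0.24. All 3 that rose were lysyl oxidases, the enzymes that crosslink elastin and collagen. Lox was at 6.08, 6.30, 5.82 and 6.46 in uninjured digits and at 9.13, 10.08 and 10.10 in blastemas. No other gene of this list changed so much, and it rose by 3.60 ± 0.26 (SE), or 12.2-fold (limma adjusted p = 0.00126). Loxl3 rose by 1.52 ± 0.27 (SE) (limma adjusted p = 0.0162), and lost its call on omission of uninjured array 4 (0.0501), blastema array 2 (0.0729) or blastema array 3 (0.0588). Loxl1, the family member that binds fibulin-5 and is needed for elastic fibres, rose by 1.51 ± 0.15 (SE) (limma adjusted p = 0.00245) and is named after its value was seen. Loxl4 (0.28), the transglutaminase gene Tgm2 (-0.04) and the elastin receptor complex genes Neu1 (0.20) and Ctsa (-0.18) did not pass.

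Of 18 measured genes for fibronectin receptors and their linkers, 7 rose, 0 fell and 11 did not pass (median 0.28). Itga5 and Itgb1 encode the chains of the main fibronectin receptor, integrin alpha-5 beta-1. Itga5 was at 6.33, 6.33, 6.21 and 6.64 in uninjured digits and at 7.29, 7.56 and 7.80 in blastemas, a rise of 1.17 ± 0.15 (SE) (limma adjusted p = 0.00482). Itgb1 was at 8.97, 9.10, 8.88 and 9.15 in uninjured digits and at 9.71, 10.10 and 10.16 in blastemas, a rise of 0.97 ± 0.13 (SE) (limma adjusted p = 0.00562). Neither gene's groups overlapped, and both calls held in each omission of 1 array. The others that rose, named after their values were seen, were the integrin genes Itgav (0.54), Itgb3 (0.68) and Itgb5 (0.27), the syndecan gene Sdc2 (0.93) and the kindlin gene Fermt2 (0.83). These were weaker calls. Itgav lost its call on omission of uninjured array 2, 3 or 4, or of blastema array 2 or 3 (limma adjusted p = 0.0521 to 0.0853). Itgb3, Itgb5, Sdc2 and Fermt2 lost theirs on omission of any single array other than blastema array 1 (0.0506 to 0.174), and Itgb5 turned to -0.09 under reference gene scaling. That scaling also ended the calls of Itgav (0.18, limma adjusted p = 0.177) and Itgb3 (0.31, 0.0684). The alpha chain gene Itga4 (-0.16), the syndecan gene Sdc4 (-0.07) and the tensin gene Tns1 (-0.34) lay below 0 and did not pass.

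Of 11 proteases that can degrade elastin, 5 rose, 0 fell and 6 did not pass (median 0.39). Mmp9, a gelatinase, rose by 4.59 ± 0.32 (SE), and Ctsk, the collagen- and elastin-degrading cathepsin of osteoclasts, rose by 3.32 ± 0.24 (SE) (limma adjusted p = 0.00126 for both). Mmp14 (2.40), Mmp2 (2.14) and Ctss (1.56) rose as well and were also picked out with their values in view. Ctss lost its call on omission of uninjured array 3, blastema array 2 or blastema array 3 (limma adjusted p = 0.0522, 0.0706 and 0.0764 in turn). The neutrophil elastase gene Elane differed by 0.01 and the macrophage elastase gene Mmp12 by 0.39 (limma adjusted p = 0.951 and 0.0683). Both had means under the background proxy in both groups, as had Mmp7, Prtn3 and Ctsg, so these comparisons were limited by low signal. Of the 6 that did not pass, only Ctsl, which differed by -0.02, was above the proxy. Over the 4 lists together, which were chosen with earlier results known, 19 of 56 measured genes rose and 1 fell. Of all genes, 4.98% were called higher and 4.66% lower. Omission of uninjured array 2, 3 or 4 left 12, 12 and 11, and omission of blastema array 2 or 3 left 10 each. Scaled to the reference genes, 15 of the 56 were called higher and 14 lower, against 1 lower in the deposited scaling.

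Cell type markers were counted in the same way, beside 4.98% of all genes called higher and 4.66% lower. Fibroblast markers changed in part. Of 7, 3 rose (Col1a2, Col3a1 and Lum) and 4 did not pass, and the mean level of the list was 8.06 to 9.11 in uninjured digits and 9.87 to 10.49 in blastemas. Its lowest arrays were uninjured array 3 and blastema array 1, which were also low for most of the 9 genes. The same arrays were lowest for the smooth muscle, macrophage, osteoblast, chondrocyte and tendon lists, so this order was not particular to fibroblast markers. Within the fibroblast list the changes were uneven, from 3.35 for the collagen gene Col1a2 and 0.89 for Pdgfra (limma adjusted p = 0.0764) to 0.11 for the decorin gene Dcn (limma adjusted p = 0.806). All 7 changes were above 0, and 6 had an unadjusted limma p under 0.05. Osteoblast markers rose in 6 of 6 measured, with list means of 5.83 to 6.76 in uninjured digits and 9.17 to 9.64 in blastemas. Among them, the uninjured means of Bglap (5.29) and Dmp1 (5.20) were under the background proxy, so the sizes of their changes are uncertain. Of 7 smooth muscle and pericyte markers, which include cells of elastic vessel walls, only Pdgfrb rose, and the list means of 6.73 to 7.78 and 7.57 to 8.07 overlapped. In that list the smooth muscle myosin gene Myh11 differed by -0.66 (limma adjusted p = 0.269), Acta2 by 1.66 (0.0591), and Des was under the background proxy in both groups.

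The endothelial list had 2 of 7 markers higher (6.03 to 6.65 in uninjured digits and 6.68 to 7.27 in blastemas), and the macrophage list 4 of 7 (6.37 to 6.60 and 6.90 to 7.30). The chondrocyte list had 3 of 6 higher (6.01 to 6.56 and 7.05 to 7.28). The tendon list had 1 of 5 higher and 1 lower (7.04 to 7.71 and 7.25 to 7.66), and the Schwann cell list 1 of 4 measured lower (5.92 to 6.08 and 5.74 to 5.80). None of 6 measured epidermal markers passed by limma, 2 of them at an unadjusted p under 0.05 (10.75 to 10.88 and 10.68 to 10.76). Krt1 and Krt10, keratin genes of differentiated epidermis, had mean levels of 13.05 and 12.85 in uninjured digits and 12.88 and 12.67 in blastemas, so epidermal RNA was present in both groups. The cell type markers under the background proxy in both groups were Des, Cldn5, Col9a1, S100b and Cdh19. The part of cell makeup in the rise of the 9 genes was not tested.

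The genes with a pattern most like that of Fn1 and of Eln were sought as those with the smallest root mean square difference over the 7 arrays, each gene centred on its uninjured mean. For Fn1 they were Acan, the cartilage proteoglycan gene (0.23 on the log2 scale), Phex, a gene of mineral control (0.25), and Lilrb4a, an inhibitory receptor gene of myeloid cells (0.34). The measured values of these 3 rose by 2.76, 2.64 and 2.98. The uninjured mean of Phex, 4.98, was under the background proxy, so the size of its change is uncertain. For Eln they were the oncostatin M receptor gene Osmr (0.14), the adhesion molecule gene Mcam (0.16) and the parathyroid hormone receptor gene Pth1r (0.17), which rose by 1.29, 1.32 and 1.29.

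**Figure D4:**
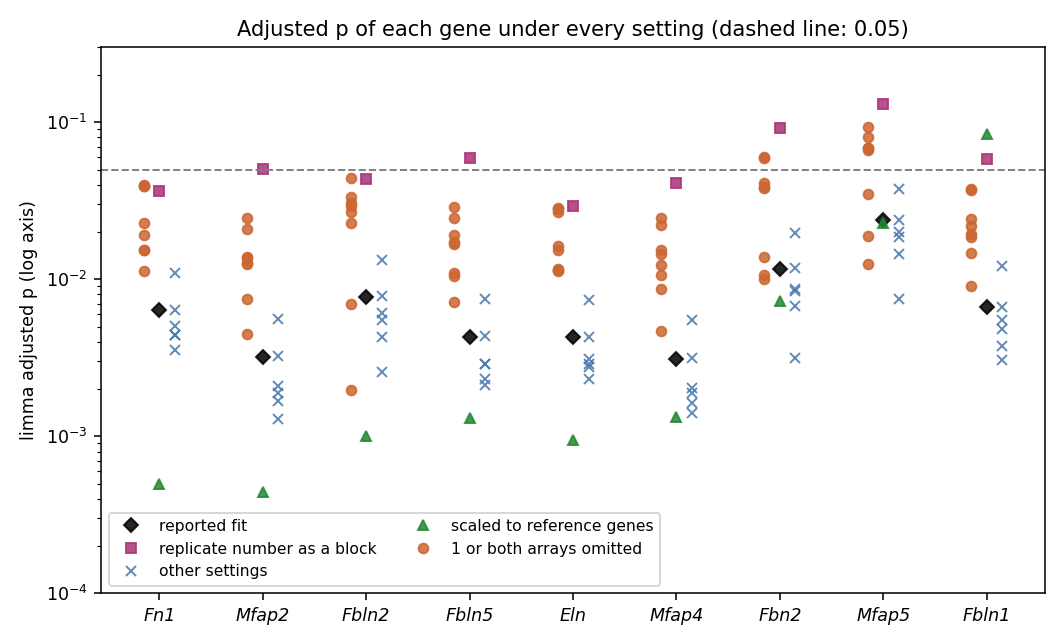
Adjusted p of each of the 9 genes (log axis) in the reported limma fit and under 16 other settings, with the threshold of 0.05 dashed. Fn1, Eln, Mfap4 and Fbln2 lie under the line in all settings, Mfap5 lies above it in 6, Fbn2 in 3, Fbln1 in 2, and Mfap2 and Fbln5 in 1 each.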

How the data were processed

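Levels of 41345 probe sets on 7 one-colour arrays (400 ng of total RNA each) were deposited as log2 values. The submitters' processing notes name oligo and RMA, a method of background correction, normalization between arrays and probe summary, without versions. Array medians were 5.53 to 5.58, and RMA can hide a shift shared by all genes. Arrays have no read depth, and their number limits the precision. The file has 0 columns of other samples.

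Genes came from probe sets with 1 symbol in the platform annotation (23521, against 1814 with several and 16010 with none). For 1082 genes with more than 1 probe set the brightest over all arrays was used. The test was limma 3.58.1 in R 4.3.3 (lmFit, eBayes, no covariate or filter), Benjamini-Hochberg over 22180 genes, two-sided, called under 0.05, with 95% intervals from the fit. It was tested on simulated data. Pairs of paralogues were compared by an exact permutation test, with the smaller tail doubled for the two-sided p. The planned pair of Fbn2 with Fbn1, and genes like Fbn1, were not analysed here.

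The 10 members, the 4 related lists, the marker lists and the settings were chosen with earlier results of these data known. Of 61 related genes 56 were measured, and the others are not analysed here. Named genes are the 10 members, the 2 called genes of each related list with the largest absolute change (the smallest p where none is called), the markers, and the 3 genes most like Fn1 and Eln. Promoter windows are the bases before the start site in a RefSeq table. The coordinates of the windows are those of that RefSeq table. No coordinates of the array's probe sets are given, because the array's build is not stated. The figures were drawn with matplotlib 3.10.9.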

Additional observations from a re-analysis of the deposited data

Results flagged for a closer look

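In 1 of 29 genes examined, the group of 4 uninjured digits held a value far from the others. Efemp1 on uninjured array 3 was at 6.56, while the other uninjured arrays were at 7.08 to 7.18. The gap was 0.834 of the group's range, above Dixon's 95% critical value for 4 samples, and about 1 in 20 groups is marked in this way by chance. Without that array Efemp1 still fell, and its call held.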

How the results depend on the processing

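The 9 genes were higher in the blastema under each of the 16 other settings. All 9 passed with the level filter, the mean of probe sets, trend and robust variances, array weights, array median scaling, all probe sets tested and without both arrays numbered 1. Reference gene scaling kept 8 (not Fbln1) and gave 550 higher and 11201 lower genes and 14 lower related genes. Under it Itgb5 was at -0.0869. With the replicate number as a block, 4 genes passed (Fn1, Eln, Mfap4 and Fbln2), with 295 higher and 304 lower genes over the table and 10 higher and 0 lower related genes. That fit rests on 3 arrays a group, since uninjured array 4 has no partner. Whether the numbers pair the samples is not known. Deviations of same-numbered arrays correlated at 0.286, 0.151 and -0.0651 over genes. Blastema arrays 1 and 2 correlated best with the uninjured array of their own number, and blastema array 3 with uninjured array 4 (0.14). Omission of 1 array left 457 to 1286 higher and 365 to 1009 lower genes, 7 to 9 of the 9 genes, and 10 to 21 higher and 0 to 1 lower related genes. The lower gene, Efemp1, was lost without blastema array 2, and without both arrays numbered 1 there were 0 lower related genes. The higher genes over the table numbered 682, 625 and 658 without uninjured array 2, 3 or 4, and 457 and 480 without blastema array 2 or 3. The difference between the changes of Mfap2 and Mfap5 was 0.96 to 1.12 over omissions of 1 array, and that of Fbln1 and Fbln2 was -1.22 to -0.79. Array omissions leave fewer samples, yet the higher genes over the table rose to 1286 without blastema array 1. The cause of these shifts was not tested.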
